A study of Neurospora crassa with 18 samples.

Results

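The 278 genes described here are the interior genes of linkage groups (LG) I, II, V, VI and VII of Neurospora crassa that carry 2 chromatin marks together, out of 1970 genes listed as marked and 7760 listed as not marked by ASH1, which are all the genes counted here. A gene was taken when it stood both in the list of 1970 genes marked by ASH1 and in the list of 836 genes marked by H3K27me2/3, lay on 1 of these 5 of the 7 linkage groups, and was not wholly within 100 kb of the outermost gene at either end. Of the 600 co-marked genes in all, 254 others are interior genes of LG III and IV and 68 lie within 100 kb of an end. LG VI holds 99 of the 278 genes, LG VII 74, LG V 64, LG I 24 and LG II 17. The gene nearest an end that was taken is NCU09279 (104 kb from the outermost gene of LG VII), followed by NCU09278 at 106 kb, and the nearest that were left out are NCU09593 (99.2 kb) and NCU07119 (93.4 kb).

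Methylation of lysine 27 of histone H3 is made in Neurospora by the PRC2 complex, whose catalytic subunit is SET-7, and marks domains of silent genes. Lysine 36 of the same histone is methylated by a pair of enzymes. SET-2 travels with elongating RNA polymerase II and marks transcribed genes, whereas ASH1 acts on genes that are poorly transcribed. The co-marked genes are those where the ASH1 mark and the PRC2 mark meet. NPF is the Neurospora p55 protein, a histone-binding subunit found with PRC2, and its loss is best known for removing H3K27 methylation near chromosome ends.

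RNA was measured by poly-A+ RNA-seq in 4 strains with 2 libraries each. The ash1(Y888F) strain (N4878, mat A, his-3) carries a tagged ASH1 with a changed residue in its catalytic domain, the Δset-2 strain (N5761, mat a) has hph in place of set-2, the Δmus-52 strain (N2930, mat A, his-3), here called the parent, lacks a gene of the end-joining repair of DNA breaks and has both H3K36 methyltransferases intact, and WT (N623, mat A) carries the his-3 allele. H3K27 methylation was measured by ChIP-seq in ash1(Y888F) against WT and in Δnpf (N4721, mat a) against WT. The label names H3K27me2/3 for ash1(Y888F) and H3K27me3 for Δnpf, so the antibody differs between these ratios as well as the strain. Among the RNA strains only Δset-2 is mat a and is listed without his-3, so there these cannot be told apart from the deletion. By its listed genotype ash1(Y888F) also carries the tag and an hph marker, which WT lacks, so these cannot be told apart from the changed residue. An H3K27me2/3 library labelled as tagged ASH1 without that change is in the series and was not used. Each strain is 1 isolate, and the study calls its RNA libraries biological replicates. The labels do not say how the cultures were separated, and p-values measure the spread between these libraries.

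Each RNA library held 6547197 to 8837798 counts in genes, and libraries of a strain correlated with Spearman's rho of 0.959 in ash1(Y888F) and 0.985 in each of the other strains. The deleted genes gave few reads or fewer reads in their own strain. The gene mus-52 had 2 counts in each parent library, against 278 and 347 counts in WT. The gene set-2 had 46 and 50 counts in the Δset-2 libraries, against 120 and 153 counts in WT, so that part of its reads remained (edgeR log2 fold change −1.61 ± 0.27 (SE), adjusted p = 0.0095). The ash1 gene (NCU01932) keeps its transcript in the point mutant, with 556 and 825 counts against 668 and 675 counts in WT, which leaves the ash1(Y888F) label unchecked by its RNA. In Δset-2 the ash1 gene had 179 and 181 counts, a fall of 2.01 ± 0.18 on the log2 scale (edgeR adjusted p = 0.0018). Dates in the library names place the WT and parent libraries on 1 date, both Δset-2 libraries with ash1(Y888F) library 2 on another, and ash1(Y888F) library 1 alone, so date and mutation cannot be told apart in the comparisons of the mutants with WT.

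Few of these genes were transcribed in WT. No read was counted in either WT library for 143 of the 278 genes (51.4%), which allows up to 3 counts for each over that pair of libraries, and 36 genes reached 1 CPM per kb of gene span on average. Genes at 0 in both libraries numbered 48 in ash1(Y888F) (17.3%), 139 in Δset-2 and 152 in the parent. Genes at or above 1 CPM per kb numbered 125 in ash1(Y888F), 58 in Δset-2 and 32 in the parent. Over all listed genes, 10.4% had no count in WT. At 37 of the 278 genes no library of any strain held a read. Gene symbols are rare here, since 5 of the 278 genes have one in the RefSeq annotation, against 1118 of all listed genes. These are gh11-2 (a glycoside hydrolase of the xylanase family 11), gh7-4 (a glycoside hydrolase of the cellulase family 7), gh81-1 (a glycoside hydrolase of the beta-1,3-glucanase family 81), nca-3 (a calcium-transporting ATPase) and nop-1 (an opsin).

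Loss of H3K27me2/3 in ash1(Y888F) was found at a part of these genes, in blocks. The values are log2 ratios of mutant over WT coverage averaged over 0.5 kb on each side of the gene start, 1 value per gene with no replicate, so no test is possible. WT H3K27me2/3 both chose the genes and stands in the denominator of the ratio. The paper names no spike-in, so the ratio is one of relative coverage. A ratio was given for 268 of the 278 genes. In ash1(Y888F) it ran from −2.97 to 1.34 with a median of −0.28 and quartiles of −1.62 and 0.24. It was at or under −1, a coverage of 50% of that in WT or less, at 105 genes (39.2%), against 28% of all 592 genes with a ratio. It lay between −1 and −0.5 at 23 genes and above −0.5 at 140. A ratio of 1 or more was found at 7 genes (2.61%, against 4.22% of all 592). The genes nearest the threshold of −1 were NCU07092 (−1.03) and NCU05920 (−1.01) inside it, and NCU05101 (−0.997) and NCU09279 (−0.98) outside it.

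The loss differed between linkage groups. At or under −1 were 13 of 15 genes on LG II, 39 of 71 on LG VII and 49 of 95 on LG VI, but 2 of 24 on LG I and 2 of 63 on LG V. On LG VI it depended on the side of the chromosome. Left of the midpoint 43 of 45 genes were at or under −1, with a median of −2.10, whereas right of it 6 of 50 were, with a median of 0.07. On LG VII the sides were closer, with 35 of 61 genes at or under −1 left of the midpoint and 4 of 10 right of it. The distance from the outermost gene itself ran only weakly with the ratio (Pearson's r −0.12, Spearman's rho −0.11 across 268 genes, given as a description since neighbouring genes share a domain and the libraries).

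**Figure D1:**
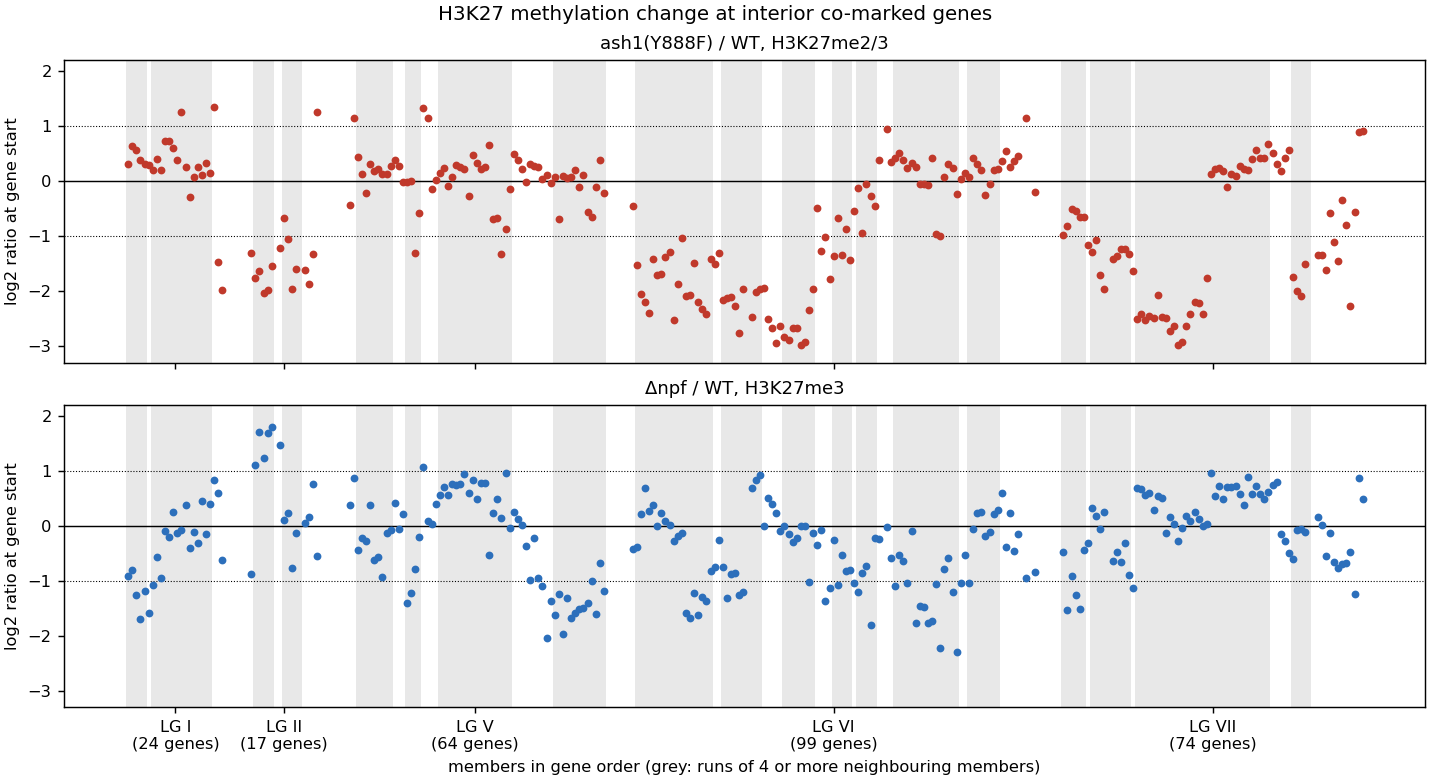
H3K27 log2 ratio at the gene start for each of the 268 genes with a value, in gene order along LG I, II, V, VI and VII, for ash1(Y888F) over WT above and Δnpf over WT below. Grey bands are runs of 4 or more neighbouring genes of the set, and dotted lines mark ratios of −1 and 1. In ash1(Y888F) whole runs on LG II, the left of LG VI and LG VII sit under −1. On LG I 15 of 24 genes and on LG V 50 of 63 lie within 0.5 of 0. In Δnpf low ratios are seen in runs on the right of LG V and on LG VI.

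The 278 genes fall into 81 runs of neighbours with no other listed gene between them, and 247 of the genes (88.8%) have a neighbour in the set. Of the 29 runs of 4 or more genes, 12 had every ratio at or under −1 in ash1(Y888F) (72 genes with a ratio), 13 had none (103 genes) and 4 were mixed. The range of ratios within such a run had a median of 0.79. Neighbours are not independent measurements, and the windows of 23 of the genes overlap that of another. The ratios just upstream and just downstream of the gene start correlated with r = 0.97 in ash1(Y888F) and 0.84 in Δnpf.

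The lowest ratios were in a few runs. On LG VI (NC12 positions 457146 to 483853) the 8 genes from NCU04706 to NCU17066 ranged from −2.97 to −1.97. NCU12078 had −2.97, NCU04709 −2.92, NCU04707 −2.88 and NCU04706 −2.83 in this run. NCU04703 just before it had −2.94, and NCU07049, further left on LG VI, had −2.76. On LG VII (695165 to 721156) 12 genes from NCU06896 to NCU06905 ranged from −2.97 to −1.77, among them NCU12045 (−2.97) and NCU06901 (−2.92). These 8 genes have the lowest ratios of the set and none of them has a symbol in the annotation used here. At the other end stood NCU08116 (1.34) and NCU08097 (1.26) on LG I, NCU09851 (1.34) on LG V and NCU16600 (1.26) on LG II. The 15 genes of the run on LG VII at 886585 to 930085 kept their mark in ash1(Y888F), with ratios from −0.11 to 0.68. Of the symbol-bearing genes, gh81-1 had a ratio of −1.5, nca-3 −0.45, gh11-2 0.12, nop-1 0.19 and gh7-4 0.42.

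In Δnpf the H3K27me3 ratio was low at fewer of these genes. It ran from −2.29 to 1.79 with a median of −0.15, and was at or under −1 at 56 genes (20.9%, against 29.2% of all 592) and at or over 1 at 7 (2.61%, against 4.56%). At or under −1 were 15 of 45 genes right of the midpoint of LG V and 2 of 18 left of it, and 19 of 50 right of the midpoint of LG VI and 10 of 45 left of it. LG VII held 5, LG I 5 and LG II 0. Both sets of ratios are taken over WT, and whether over the same WT library is not given in the sources used here, so values of the mutants are given side by side with no measure of their relation.

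The long runs show the values side by side. The 5 genes of the run on LG II at 562861 to 571921 had ratios from −2.03 to −1.54 in ash1(Y888F) and from 1.11 to 1.79 in Δnpf, and NCU03472 (1.79), NCU03475 (1.71) and NCU03473 (1.68) of this run, with NCU03469 nearby (1.47), have the 4 highest Δnpf ratios of the set. The opposite was seen in the longest run, 16 genes on LG VI at 3702657 to 3749657 from NCU05114 to NCU05097. There the ash1(Y888F) ratios ran from −0.997 to 0.50 with a median of 0.23, and the Δnpf ratios from −2.29 (NCU05097) and −2.23 (NCU05101) to −0.10 (NCU05110). The run holds gh7-4, with a Δnpf ratio of −1.73. On LG V, gh11-2 (−2.03) and NCU07217 (−1.98) complete the 4 lowest Δnpf ratios, and the 13 genes of the run at 6214817 to 6241091 had Δnpf ratios from −1.98 to −0.67 beside ash1(Y888F) ratios from −0.70 to 0.38. Farther inside, Δnpf ratios were somewhat higher (Spearman's rho with distance from the outermost gene 0.31, across 268 genes).

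The share of low ratios differed between these and the other co-marked genes, though in Δnpf the interior sets were close. A ratio at or under −1 in ash1(Y888F) was found at 105 of 268 of the genes described here, at 51 of 252 interior genes of LG III and IV (20.2%) and at 10 of 65 genes within 100 kb of an end (15.4%). The medians were −0.28, 0.32 and −0.07 in that order. In Δnpf the same count was 56 of 268, 65 of 252 (25.8%) and 52 of 65 (80.0%), with medians of −0.15, −0.46 and −1.48. No test was run between these sets, since neighbouring genes move together and there is 1 measurement per strain. The share in ash1(Y888F) also varied within the genes described here, from 2 of 63 on LG V to 13 of 15 on LG II.

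**Figure D2:**
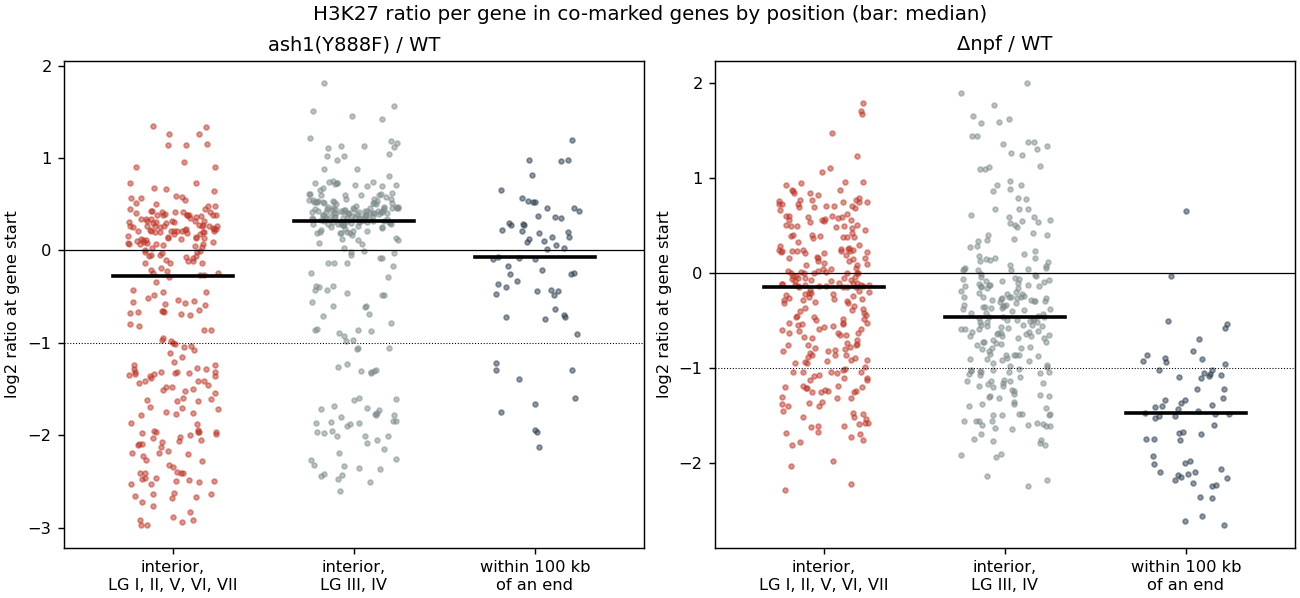
H3K27 log2 ratio per gene in ash1(Y888F) over WT (left) and Δnpf over WT (right) for the interior co-marked genes of LG I, II, V, VI and VII, those of LG III and IV, and co-marked genes within 100 kb of an end. Each point is a gene, the bar is the median and the dotted line marks −1. The ash1(Y888F) medians are −0.28, 0.32 and −0.07, and the Δnpf median is lowest near the ends, at −1.48.

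RNA from these genes was higher in ash1(Y888F). The 278 genes took 0.265 and 0.226% of the counts in the ash1(Y888F) libraries, 0.0709 and 0.0663% in Δset-2, 0.0265 and 0.0280% in the parent and 0.0281 and 0.0272% in WT. A single gene, NCU04697 on LG VI, gave much of the first value, and without it, a calculation chosen after seeing the data, the shares were 0.135 and 0.204% in ash1(Y888F) and 0.0270 and 0.0262% in WT. Both ash1(Y888F) libraries were above both WT libraries at 151 of the 278 genes (54.3%, against 30.4% of all listed genes), and below both at 6 (2.16%, against 22.4%). A ratio of mean CPM, with 0.5 added to each mean, of at least 2 was reached by 119 genes (42.8%, against 16.4% of all genes) and of at least 8 by 43 (15.5%, against 4%). Of the 143 genes with no WT count, 60 had counts in both ash1(Y888F) libraries, 9 in both Δset-2 libraries and 5 in both parent libraries. In bulk RNA, more cells that transcribe a gene and more RNA per cell cannot be told apart.

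By edgeR's quasi-likelihood test, 78 of the 108 genes that passed the filter on low counts were higher in ash1(Y888F) than in WT (adjusted p under 0.1, against 13% of the 8125 genes tested) and 0 were lower (against 3.36%). With an unadjusted p under 0.05, 82 were higher and 1 lower, and DESeq2 called 87 higher and 0 lower (against 12.9 and 3.82% of its 8971 genes). The 108 genes are not the whole set, since a gene silent in WT passes the filter only when it is high in the mutant: all 43 of the genes tested with 3 or fewer WT counts were called higher. Without the filter, 93 of 236 genes with a count were called higher and 0 lower (against 12.5 and 3.36% of 9332 genes). Of the 78 genes, 76 were also higher against the parent, 74 in DESeq2 and 57 in every fit that left out 1 library. Both ash1(Y888F) libraries were above both WT libraries for all 78.

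The largest rises were at genes with no read or 1 read in WT. NCU06888 on LG VII had 146 and 271 counts in the ash1(Y888F) libraries and 0 in both libraries of each other strain, which is at least 145-fold higher than WT with a floor of 3 counts over the pair of libraries. It lies in a run of 6 genes (661362 to 675441) with ash1(Y888F) H3K27 ratios from −2.52 to −2.06, in which NCU06886 had 32 and 22 counts in ash1(Y888F) and 1 and 0 in WT, and NCU06889 had 22 and 29 counts in ash1(Y888F) and 0 in both WT libraries. These last 2 genes were singled out after their values were seen.

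On LG II, the 5 genes from NCU05463 to NCU05470 (1677867 to 1689417) were nearly silent outside ash1(Y888F). NCU05467 had 339 and 300 counts in ash1(Y888F) and 0 and 1 in WT, a ratio of 668 with an exact 95% counting interval of 119 to 26428. NCU05469 had 164 and 229 counts against 0 and 1 in WT, and NCU05463 had 219 and 82 counts against 0 and 1. NCU05470 had 174 and 211 counts in ash1(Y888F) and 0 in both WT libraries, at least 134-fold higher. Summed over the run there were 902 and 828 counts in ash1(Y888F), 4 and 3 in Δset-2, 4 and 2 in the parent and 0 and 3 in WT. The ash1(Y888F) libraries stand apart from the 6 others at these 4 genes. Their H3K27 ratios were −1.97 (NCU05467), −1.59 (NCU05469) and −0.67 (NCU05463), and NCU05470 has none.

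On LG VI, the run with the lowest H3K27 ratios gave 302 and 408 counts in ash1(Y888F) against 4 and 5 in WT. NCU04710 had 117 and 191 counts in ash1(Y888F) and 0 in both WT libraries (at least 107-fold higher), NCU04706 had 104 and 124 against 0 in both (at least 79.5-fold) and NCU04707 had 40 and 51 against 0 in both (at least 31.7-fold). Loss of the mark was not matched by transcripts at every gene of the run: NCU12078 had 2 and 2 counts in ash1(Y888F) and NCU04709 0 and 1, with no count in WT. The same holds for the run of 12 genes on LG VII, which gave 50 and 77 counts in ash1(Y888F) over all its genes, against 1 and 0 in WT, and where 1 of 12 genes passed the filter.

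On LG VII, NCU17203 had 133 and 119 counts in ash1(Y888F) and 0 in both WT libraries (at least 87.8-fold higher). Its neighbours NCU17202, with 56 and 60 counts against 0 in both, and NCU06164, with 35 and 46 against 0 in both, were at least 40.4 and 28.2-fold higher. The run of 5 genes (1589163 to 1597449) had H3K27 ratios from −2.10 to −1.51. NCU07235 on LG V was unlike the others in its mark, since its H3K27 ratio was 0.32, and it had 68 and 24 counts in ash1(Y888F) and 0 in both WT libraries (at least 32.1-fold). For these 12 genes edgeR's adjusted p ranged from 0.0021 (NCU05467) to 0.022 (NCU07235), and each was also called higher against the parent. They passed the filter on low counts through their ash1(Y888F) reads and were chosen for their fold changes. The comparison with the parent uses the same ash1(Y888F) libraries, so these calls are no independent support.

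**Figure D3:**
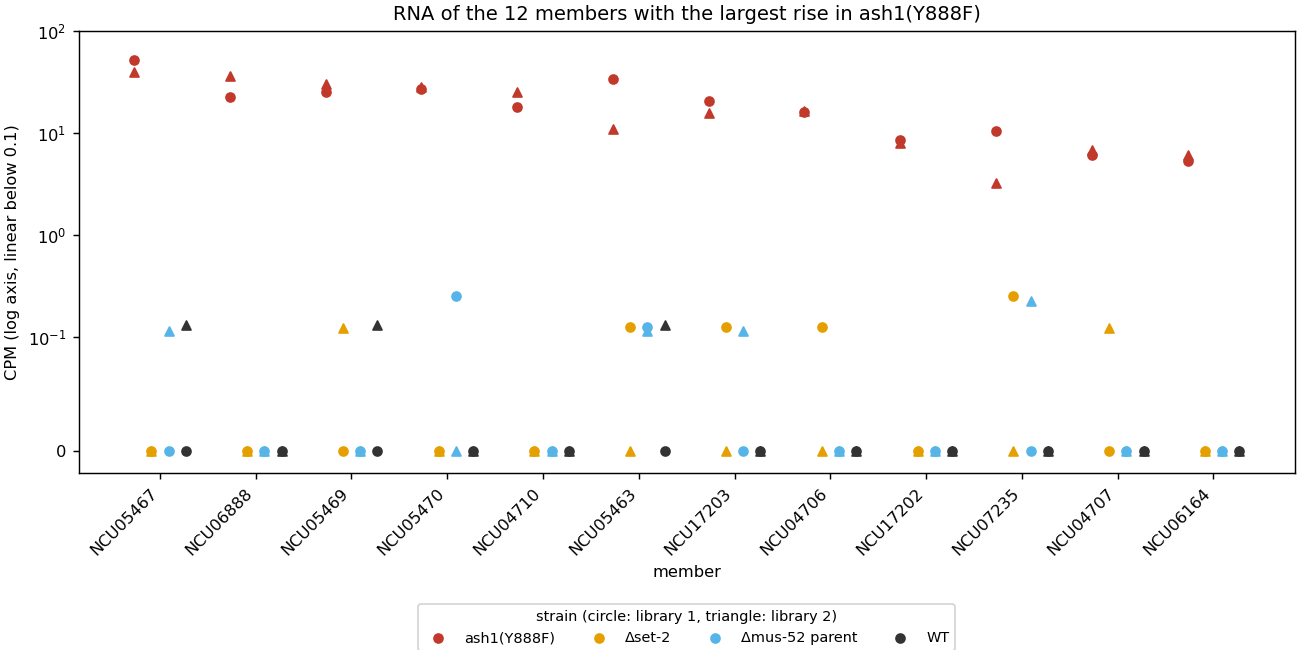
CPM of the 12 genes with the largest edgeR rise in ash1(Y888F) in each of the 8 libraries, on a log axis that is linear below 0.1. Circles are library 1 and triangles library 2, with the ash1(Y888F), Δset-2, parent and WT values side by side from left to right. For every gene both ash1(Y888F) libraries lie far above the 6 other libraries, which hold at most 2 counts each.

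Genes with reads in WT rose too. NCU04697 on LG VI, with an H3K27 ratio of −1.97, had 9242 and 1470 counts in ash1(Y888F), 40 and 23 in Δset-2, 29 and 61 in the parent and 82 and 79 in WT (log2 fold change 6.20 ± 1.02 (SE), edgeR adjusted p = 0.015). Its ash1(Y888F) libraries lay far apart, yet each was above all 6 others, and the log2 fold change was 4.15 without library 1 and 7 without library 2. NCU07049, with a ratio of −2.76, had 596 and 871 counts in ash1(Y888F) and 127 and 62 in WT (2.99 ± 0.42, edgeR adjusted p = 0.0099), and 3.67 without WT library 1. The calcium pump gene nca-3 had 319 and 220 counts in ash1(Y888F), 508 and 330 in Δset-2, 65 and 74 in the parent and 59 and 42 in WT, and was higher in both mutants (log2 fold change 2.50 ± 0.40 in ash1(Y888F), edgeR adjusted p = 0.014, and 2.93 ± 0.33 in Δset-2, edgeR adjusted p = 0.0035). Reads of the opsin gene nop-1 numbered 13 and 30 in ash1(Y888F), against 9 and 10 in WT (1.22 ± 0.54, edgeR adjusted p = 0.24). The 3 glycoside hydrolase genes did not pass the filter: gh11-2 had 17 and 1 counts in ash1(Y888F) and 2 and 2 in WT, gh81-1 had 4 and 4 against 0 and 3, and gh7-4 had 1 and 1 against 0 and 0.

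The genes with the highest Δnpf ratios lost their mark in ash1(Y888F), and 3 of the 4 rose there. NCU03473, the gene with ratios of −1.98 in ash1(Y888F) and 1.68 in Δnpf, had 65 and 54 counts in ash1(Y888F) and 0 and 1 in WT, a ratio of 124 with a counting interval of 21.9 to 4955. NCU03469 had 26 and 21 counts in ash1(Y888F) and 0 and 1 in WT, a ratio of 49.1 (8.4 to 1982). NCU03472 had 17 and 30 counts in ash1(Y888F) and 4 and 1 in WT (log2 fold change 3.21 ± 0.71, edgeR adjusted p = 0.038). Its call was lost without WT library 2 (log2 fold change 2.51, edgeR adjusted p = 0.204) and without ash1(Y888F) library 2 (2.86), and without WT library 1 the log2 fold change was 4.49. NCU03475 had 10 and 6 counts against 1 and 0 and did not pass the filter. RNA of the Δnpf strain was not analysed here, so for it only the mark is known.

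Other genes with many reads in ash1(Y888F), NCU07053, NCU06155 and NCU09278, were picked for their counts after these were seen. NCU07053, on the left of LG VI with a ratio of −2.13, had 580 and 1177 counts in ash1(Y888F), 122 and 116 in Δset-2, 5 and 13 in the parent and 30 and 26 in WT, and was higher in both mutants (log2 fold change 5.0 ± 0.40 in ash1(Y888F), edgeR adjusted p = 0.0028, and 1.97 ± 0.30 in Δset-2, edgeR adjusted p = 0.0069). NCU06155 on LG VII had 642 and 424 counts in ash1(Y888F), 39 and 28 in Δset-2, 36 and 47 in the parent and 22 and 38 in WT (4.25 ± 0.42 in ash1(Y888F), edgeR adjusted p = 0.0046). NCU09278, which lies 106 kb from the outermost gene, had 579 and 1953 counts in ash1(Y888F) and 82 and 144 in WT (3.52 ± 0.58, edgeR adjusted p = 0.015), with an H3K27 ratio of −0.81. Without ash1(Y888F) library 2 its log2 fold change was 2.53. NCU04703, whose ratio of −2.94 is the third lowest, had 55 and 37 counts in ash1(Y888F) and 1 and 0 in WT, a ratio of 96.2 (16.8 to 3840).

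RNA was higher at more of the genes that lost the mark, with many exceptions. Among the 105 genes with an H3K27 ratio at or under −1 in ash1(Y888F), both ash1(Y888F) libraries exceeded both WT libraries at 80 (76.2%). The same held at 47 of the 140 genes above −0.5 (33.6%, against 30.4% of all listed genes). Both were below both WT libraries at 6 of these 140 (4.29%, against 22.4%) and at 0 of the 105. Among the 140, 41 genes (29.3%, against 4.62%) had no ash1(Y888F) read and cannot be higher, and 76 had no WT read and cannot be lower. At least 8-fold more mean CPM was seen at 29 of the 105 genes (27.6%) and at 10 of the 140 (7.14%). The share over all listed genes was 4%. Of genes with no WT count, 33 of 52 with loss had counts in both ash1(Y888F) libraries, and 18 of 76 above −0.5 did. Without the filter on low counts, edgeR called 56 of 99 genes with loss higher, 9 of 22 between −1 and −0.5, 21 of 105 above −0.5 and 7 of 10 without a ratio. With the filter the calls were 48 of 56, 8 of 13, 17 of 33 and 5 of 6 in that order. The filter raises these shares, since a gene silent in WT enters it only through its ash1(Y888F) reads. Over all genes tested, edgeR called 12.5% higher without the filter and 13% with it. The median log2 ratio of mean CPM (0.5 added) was 1.64 with loss and 0.21 above −0.5, and a pseudocount of 0.1 gave 2.89 for the genes with loss. Against the parent in place of WT, an alternative added after seeing the data, the medians were 1.69 and 0.29.

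Across the 268 genes the H3K27 ratio and the RNA log2 ratio in ash1(Y888F) had a Pearson's r of −0.40 and a Spearman's rho of −0.43, given as a description, since genes of a run are neighbours and the ChIP and RNA libraries are each shared by all points. The ash1(Y888F) H3K27 ratio ran with neither the Δset-2 RNA (r 0.06, rho 0.04) nor the parent RNA (r 0.07, rho 0.11), and the Δnpf ratio did not run with the ash1(Y888F) RNA (r 0.05, rho 0.05).

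**Figure D4:**
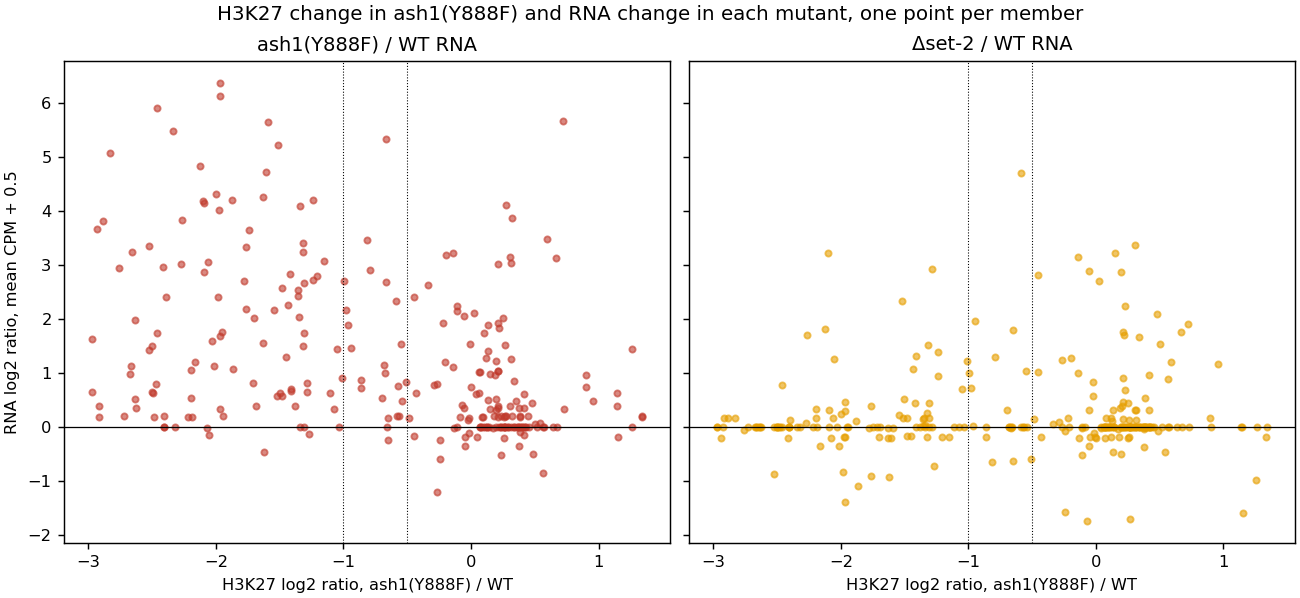
H3K27 log2 ratio in ash1(Y888F) over WT (x axis) against the RNA log2 ratio of mean CPM plus 0.5 (y axis) for ash1(Y888F) over WT on the left and Δset-2 over WT on the right, 1 point per gene. Dotted lines mark ratios of −1 and −0.5. Genes left of −1 are mostly above 0 in ash1(Y888F), with a median of 1.64, and mostly lie along 0 in Δset-2.

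Of the 17 genes called higher with an H3K27 ratio above −0.5, some are given here. On LG I, NCU08097 (ratio 1.26) had 45 and 40 counts in ash1(Y888F) and 18 and 10 in WT (log2 fold change 1.66 ± 0.50, edgeR adjusted p = 0.096), in a run where NCU08095 (ratio 0.72) had 42 and 904 counts against 6 and 5 (6.38 ± 1.5, edgeR adjusted p = 0.046). That second gene was singled out after its values were seen, and its ash1(Y888F) libraries lie far apart, with a log2 fold change of 7.30 without library 1 and 3.07 without library 2. The call of NCU08097 was lost without WT library 1, WT library 2 or ash1(Y888F) library 1 (edgeR adjusted p = 0.161, 0.541 and 0.145). The other genes with the highest ratios were all but silent: NCU09851 and NCU08116 had at most 1 count in any library and NCU16600 had none. On LG V, NCU16929 (ratio 0.27) had 470 and 233 counts in ash1(Y888F), 5 and 2 in Δset-2, 11 and 8 in the parent and 17 and 20 in WT (4.35 ± 0.52, edgeR adjusted p = 0.0067), and 3.61 without ash1(Y888F) library 1.

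Seen by run, every one of the 12 runs lost throughout in ash1(Y888F) had a summed CPM above both WT libraries in both ash1(Y888F) libraries, and 11 of them held a gene called higher (33 of their 75 genes, against 10.8% of all listed genes). The same was true of 12 of the 13 runs with no loss, of which 8 held a gene called higher (14 of 103 genes, against the same 10.8%). In these shares, genes that did not pass the filter count as not called. In Δset-2 the summed CPM was above both WT libraries in 4 of the 12 runs with loss and in 8 of the 13 without. By gene and not by run, both libraries were above both WT libraries at 30.4% of all listed genes in ash1(Y888F) and 31.9% in Δset-2. A share for summed neighbours over all listed genes was not calculated, so the counts of runs have no like background.

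**Figure D5:**
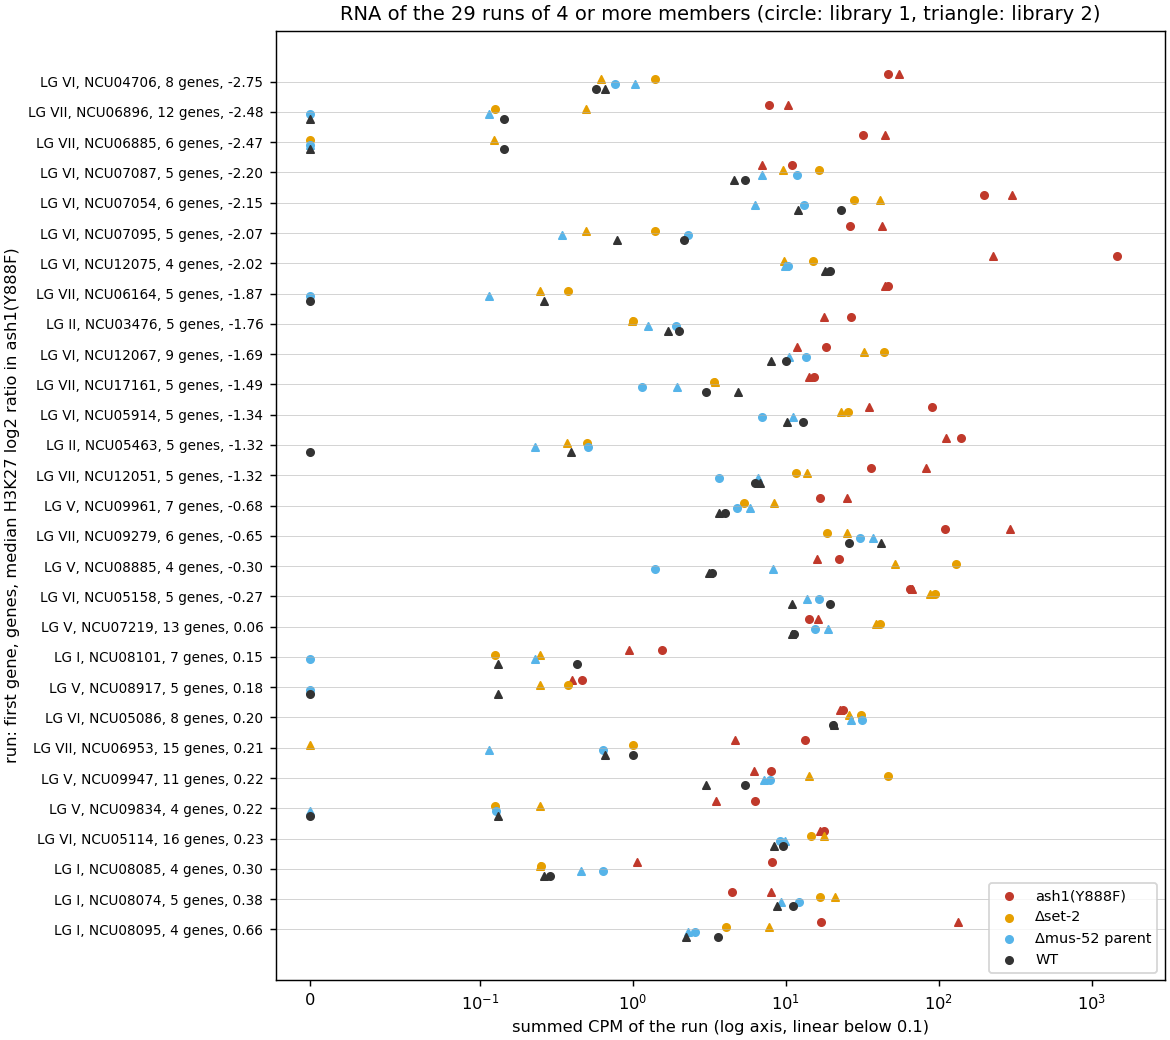
Summed CPM of each of the 29 runs of 4 or more neighbouring genes in the 8 RNA libraries, on a log axis that is linear below 0.1, ordered from the lowest median ash1(Y888F) H3K27 ratio at the top to the highest at the bottom. Circles are library 1 and triangles library 2, coloured by strain. In most of the runs at the top, ash1(Y888F) lies to the right of the 3 other strains, and in runs further down the strains come closer.

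In Δset-2 fewer of these genes were called different from WT. Without the filter on low counts, 39 of 164 genes with a count were higher (against 17.6% of 9054 genes) and 5 lower (against 16.2%) by edgeR. Of the 54 genes that passed the filter, 34 were higher (against 21.7% of the 7741 genes tested) and 4 lower (against 19.8%), a share of higher genes raised by the filter, which a gene silent in WT passes only through its Δset-2 reads. Over the whole set the 34 genes are 12.2%, against 17.2% of all listed genes. DESeq2 called 30 higher and 4 lower (against 17 and 17.3% of its 8351 genes). Over all 278 genes, both Δset-2 libraries were above both WT libraries at 58 (20.9%, against 31.9% of all genes) and below both at 23 (8.27%, against 31.3%), and 40 genes (14.4%, against 12.3%) had at least 2-fold more mean CPM. Without WT library 2, 15 genes were higher and 0 lower, and without Δset-2 library 2, 23 were higher and 1 lower. Of the 34 genes, 14 were called in every fit that left out 1 library.

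NCU09698 on LG V (797772) had 1033 and 418 counts in Δset-2, 130 and 109 in ash1(Y888F), 11 and 72 in the parent and 21 and 23 in WT, a log2 fold change in Δset-2 of 4.93 ± 0.52 (edgeR adjusted p = 0.003), and of 4.09 without Δset-2 library 1. NCU05156 had 60 and 64 counts in Δset-2 and 4 and 5 in WT (3.64 ± 0.40, edgeR adjusted p = 0.0032), and NCU09857 had 42 and 53 against 4 and 3 (3.60 ± 0.46, edgeR adjusted p = 0.0046). NCU05084 had 36 and 62 counts in Δset-2 against 1 in each WT library, a ratio of 44.5 with a counting interval of 12 to 373. These 4 genes were also higher in ash1(Y888F), where NCU09698 had a log2 fold change of 2.52 ± 0.38 (edgeR adjusted p = 0.012), and their H3K27 ratios in ash1(Y888F) ran from −0.59 to 0.30. The ash1(Y888F) calls of NCU05156 and NCU09857 were lost without WT library 1 (edgeR adjusted p = 0.141 and 0.104) and without WT library 2 (0.118 and 0.15). NCU07102, at the edge of a run with loss on LG VI (ratio −1.28), had 32 and 61 counts in Δset-2, 9 and 4 in ash1(Y888F) and 0 and 5 in WT (4.05 ± 0.85 in Δset-2, edgeR adjusted p = 0.018), and its log2 fold change was 3.12 without WT library 1, while without WT library 2 no WT read was left. NCU09947 had 181 and 23 counts in Δset-2 and 12 and 1 in WT (3.83 ± 1.22, edgeR adjusted p = 0.058), a call that was lost without Δset-2 library 1 (log2 fold change 1.63, edgeR adjusted p = 0.262), without WT library 2 (2.91 and 0.259) or in DESeq2.

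The 4 genes lower in Δset-2 were NCU05083, with 61 and 32 counts against 119 and 147 in WT (−1.62 ± 0.37, edgeR adjusted p = 0.022), NCU04697, with 40 and 23 against 82 and 79 (−1.46 ± 0.37, edgeR adjusted p = 0.029), NCU05921, with 197 and 175 against 276 and 285 (−0.70 ± 0.19, edgeR adjusted p = 0.039), and NCU16929, with 5 and 2 against 17 and 20 (−2.47 ± 0.54, edgeR adjusted p = 0.02), the last one named after its values were seen. Without WT library 2 none of the 4 was called (edgeR adjusted p from 0.107 to 0.123). Without Δset-2 library 2 the calls of NCU04697, NCU05921 and NCU16929 were lost (0.124, 0.173 and 0.122), and without WT library 1 that of NCU05921 (0.11). The log2 fold change of NCU16929 was −3.28 without Δset-2 library 1. In the longest run, NCU05114 had 62 and 57 counts in Δset-2 and 32 and 19 in WT (1.10 ± 0.39, edgeR adjusted p = 0.077), and NCU05113 had 38 and 60 against 21 and 4 (1.83 ± 0.69, edgeR adjusted p = 0.091). Both of these calls were lost without WT library 2 (edgeR adjusted p = 0.279 and 0.247) or Δset-2 library 2 (0.191 and 0.286), and that of NCU05114 also without Δset-2 library 1 (0.212). The log2 fold change of NCU05113 was 3.51 without WT library 1 and 1.04 without WT library 2. In ash1(Y888F) the same run had NCU05101, with 27 and 10 counts against 0 in both WT libraries (at least 12.9-fold higher), and NCU05102, with 36 and 36 against 7 and 8 (2.32 ± 0.46, edgeR adjusted p = 0.025), and its other 12 genes were not called in either mutant. NCU05101 was not tested without ash1(Y888F) library 1, and NCU05102 was not called without WT library 1 or WT library 2 (edgeR adjusted p = 0.164 and 0.155).

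The comparisons of the mutants with WT share the WT libraries, so the mutants were also set against each other in a fit with WT. Without the filter on low counts, ash1(Y888F) was higher than Δset-2 at 91 of 238 genes (against 17% of 9416 genes) and lower at 13 (against 12.4%) by edgeR. Among the 114 genes that passed the filter, which nearly silent genes pass only through a strain where they are high, 71 were higher (against 17.7% of 8314 genes) and 12 lower (against 14%). Without Δset-2 library 1 the genes lower in ash1(Y888F) were 5, and without Δset-2 library 2 they were 6. Without ash1(Y888F) library 1, when the mutants share a date, 62 genes were higher and 11 lower.

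The parent was set against WT as a comparison between strains with both H3K36 methyltransferases intact. None of 44 tested genes was higher (against 0.268% of 7464 genes) and 0 were lower (against 1.51%) by edgeR. With an unadjusted p under 0.05, 4 were higher and 7 lower, and DESeq2 called 0 higher and 1 lower (against 1.82 and 5.35% of its 7520 genes). At least 2-fold more mean CPM than WT was found at 3 of the 278 genes (1.08%, against 1.13% of all genes). Both parent libraries were above both WT libraries at 23 genes (8.27%, against 20.6%) and below both at 32 (11.5%, against 23.5%). Without the filter on low counts, edgeR called 0 of 157 genes higher and 0 lower, against 26 and 161 of 8901 genes. WT and parent libraries share a date.

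The share of genes higher in ash1(Y888F) differed between the sets of marked genes. Both ash1(Y888F) libraries exceeded both WT libraries at 54.3% of the 278 genes, 39.8% of the 254 interior genes of LG III and IV, 52.9% of the 68 genes near the ends, 68.4% of the 1370 genes with the ASH1 mark alone and 33.9% of the 236 genes with H3K27me2/3 alone. No count in WT was found for 51.4, 64.2, 25, 24.6 and 20.8% of these sets in the same order, and a gene at 0 in both strains cannot be higher. Over all listed genes the share higher was 30.4%, and 10.4% had no count in WT. No test was run between the sets.

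Markers of conidia and of mating differed between the strains as well. The 8 conidiation genes summed to 775 and 1440 CPM in ash1(Y888F), 1763 and 2323 in Δset-2, 369 and 340 in the parent and 309 and 172 in WT. Of the 7 of them tested, 3 were higher and 1 lower in ash1(Y888F), 6 were higher in Δset-2 and 1 was higher in the parent by edgeR. The gene con-13 had at most 4 counts in any library. In ash1(Y888F) ccg-1 alone gave 426 and 1147 CPM, and eas was lower there (log2 fold change −2.24, edgeR adjusted p = 0.0069). In the parent eas gave 169 and 185 CPM. The 7 mating genes found of 8 listed summed to 656 and 1515 CPM in ash1(Y888F), 234 and 143 in Δset-2, 149 and 121 in the parent and 159 and 110 in WT, and 5 of 6 tested were higher in ash1(Y888F), while 2 of 5 tested were higher and 1 lower in Δset-2. The 2 called higher in Δset-2 were mfa-1 and pre-2, and ccg-4 had 0 and 2 counts there against 5 and 3 in WT. Δset-2 is mat a and the other RNA strains are mat A, so mating type and deletion cannot be told apart in these values. None of these marker genes is among the 278, and their part in the results was not tested.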

How the data were processed

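The deposited RNA values are raw read counts per gene, made by the authors from stranded poly-A+ libraries filtered and trimmed with Stacks, aligned with TopHat2 and counted by strand with HTSeq. For tool versions, none is given in the sources used here. A further 7 columns of a count table without column names were not used. Reads assigned to no gene (3.58 to 11.9%) entered no test. The deposited H3K27 tables hold log2 ratios of mutant over WT ChIP-seq coverage, per the labels with Bowtie2 and deepTools, on NC12 positions counted from 1. The score column of the deposited gene lists is 0 throughout, and each list was used for membership alone. The authors defined ASH1-marked genes from H3K36me2 in Δset-2. Tables of the authors' own DESeq2 comparisons hold fold changes and p-values and were not used.

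Counts were compared with edgeR 4.0.16 (TMM normalization, its quasi-likelihood test, genes with a minimum count of 10 by filterByExpr) and called at an adjusted p under 0.1 (Benjamini-Hochberg over all genes tested) in R 4.3.3, with DESeq2 1.42.0 as the main alternative. Standard errors were taken from the fold change and the F value of the test and are approximate. CPM are TMM-scaled, and CPM per kb divide by gene span, introns included. Genes at 0 in a group are given against a floor of 3 counts over the pair of libraries. The main edgeR fits against WT were checked on simulated data, with changes planted only in genes with a mean of at least 50 counts. The other fits were not checked in this way. Named genes are those with a symbol, the 8 lowest and 4 highest ash1(Y888F) and the 4 lowest and 4 highest Δnpf ratios, the genes of the longest run, and the called genes with the largest edgeR changes (12 higher and 6 lower in ash1(Y888F), 6 and 6 in Δset-2, 4 and 4 in the parent) with non-overlapping libraries and at least 50 counts in the higher strain. Others were named after their values were seen. The genes, lists and comparisons were chosen with earlier results of these data known. All 278 locus tags matched RefSeq NC12 with the same span. Python 3.11.15 was used for tables.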

Additional observations from a re-analysis of the deposited data

Results flagged for a closer look

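The 2 mutants differed from each other at these genes under the same contrast with WT, by edgeR's test of the difference itself. Without the filter on low counts, 91 of 238 genes were higher in ash1(Y888F) (against 17% of 9416 genes) and 13 were lower (against 12.4%). The counts that follow are of genes that passed the filter, which raises them, since nearly silent genes pass only through a strain where they are high. Of 114 genes tested with 2 libraries a strain, 71 were higher in ash1(Y888F) than in Δset-2 (against 17.7% of all genes tested) and 12 were lower (against 14%), and the genes lower were 5 without Δset-2 library 1 and 6 without Δset-2 library 2. The difference reached opposite directions at 2 genes, each called higher than WT in ash1(Y888F) and lower than WT in Δset-2, but both calls in Δset-2 were lost without WT library 2 or Δset-2 library 2 (edgeR adjusted p from 0.107 to 0.124). NCU16929 had a log2 difference between the mutants of 6.80 (edgeR adjusted p = 0.00096), with 470 and 233 counts in ash1(Y888F) and 5 and 2 in Δset-2. NCU04697 had a log2 difference of 7.64 (edgeR adjusted p = 0.0029), with 9242 and 1470 counts in ash1(Y888F) and 40 and 23 in Δset-2.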

How the results depend on the processing

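The counts of genes higher in ash1(Y888F) (64 to 76 when 1 library was left out, 78 in all) and the 105 genes with H3K27 loss stayed within 1.5 times under every alternative run, among them RLE size factors, no filter, an adjusted p under 0.05 and distances of 50 and 200 kb from the ends. Genes lower in ash1(Y888F) were 1 with all 4 strains in the fit, 2 against the parent, 1 beyond 50 kb and 0 to 1 with a library left out. In Δset-2, leaving out a library gave 15 to 31 genes higher and 0 to 6 lower, and 7 were lower beyond 50 kb. Between the mutants, leaving out a library gave 55 to 82 genes higher in ash1(Y888F) and 5 to 13 lower. In the parent DESeq2 called 1 gene lower. Library numbers are shared between strains without a label that pairs them, and same-numbered libraries deviated together for some strains only (r from −0.181 to 0.524). With the number as a replicate block the parent had 4 genes higher and 6 lower, and the other counts stayed within 1.5 times. At H3K27 thresholds of 0.5 and 1.5, genes higher in ash1(Y888F) were 22 and 0, genes lower in Δnpf 100 and 20, and genes higher in Δnpf 50 and 3. The median RNA ratio of genes with H3K27 loss was 2.89 with a pseudocount of 0.1 and 1.08 with 1. Of 379 alternatives for the 38 edgeR calls of genes named by rule, 346 kept the call, 33 lost it and 0 turned round, and 26 of the 38 calls held under every alternative in which the gene was tested. The exceptions are NCU08097, NCU03472, NCU05156, NCU09857, NCU05102 and NCU09698 (this last only against the parent) in ash1(Y888F), and NCU09947, NCU05083, NCU04697, NCU05921, NCU05114 and NCU05113 in Δset-2. The causes were not tested. With 6547197 counts in the shallowest library, a gene at 0 in 2 libraries may hold up to 3 counts, intervals cover counting error only, and the H3K27 ratios have no replicate.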
